A study of Mus musculus with 73 samples.

Results

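The reporter library of the *Nanog* promoter comprised 14249 of the 110180 combinations measured in the series, taken as all rows of the activity table that name this promoter. Of these, 291 were control-control (CC) combinations, 4984 enhancer-control (EC) combinations and 8974 enhancer-enhancer (EE) combinations. In each plasmid, a barcoded reporter is driven by the *Nanog* promoter, and a pair of fragments lies downstream of it in position 1 and position 2, each in plus or minus orientation. All samples were mouse embryonic stem cells of the line E14tg2a, grown in 2i and LIF and collected 24 hours after transient transfection. They carried no genetic difference between groups, and the compared groups are types of plasmid within the same pool. The pool was transfected in 3 biological replicates, and the activity of a combination is its mean cDNA to plasmid DNA (pDNA) ratio over barcodes. The table holds no number of barcodes, and without it neither a depth nor a counting error can be given for an activity. All replicates used the same plasmids and barcodes, so their spread contains the transfection and the RNA measurement but not the choice of barcodes.

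*Nanog* encodes a homeodomain transcription factor of the pluripotency network. In mESCs its promoter is known to be bound by POU5F1 and SOX2 at a composite site close to the start site, and the gene lies among several clusters of enhancers. In a reporter assay, an enhancer is a DNA fragment that raises transcription from the promoter of the plasmid, and the promoter's own baseline is read from plasmids that carry only control fragments. Here the baseline is the median activity over CC combinations, and the boost index is the log2 of an activity over this baseline in the same replicate.

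The listed window of the *Nanog* promoter lies on chromosome 6 from 122707114 to 122707563 (mm10). It is 450 bp long, with 375 bp before the RefSeq start site at 122707489. Coordinates of all fragments are those of such windows. The study placed primers in the window ends, so the cloned fragments were somewhat shorter. The 250 bases before this start site, which all constructs share, are shown to give the promoter whose response is described. They span chr6:122707239-122707488 on the plus strand in RefSeq's GRCm38.p6 annotation, and capitals mark motif matches.
Nanog promoter: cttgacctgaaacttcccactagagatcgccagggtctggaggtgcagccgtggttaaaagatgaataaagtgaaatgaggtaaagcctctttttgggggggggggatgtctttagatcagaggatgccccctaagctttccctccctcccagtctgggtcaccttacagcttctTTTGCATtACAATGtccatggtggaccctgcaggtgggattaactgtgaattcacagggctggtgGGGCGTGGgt
Motifs were searched on both strands in these 250 bases and in the same window of 32851 promoters. The POU motif ATGCAAA had 1 match, on the minus strand starting 75 bases before the start site, and 4.12% of all promoters hold one. The SOX motif CATTGT had 1 match on the minus strand starting 67 bases before the start site, next to the POU match with a single base between them, and occurs in 10.7% of promoters. The KLF motif GGGNGTGG had 1 match, 10 bases before the start site (15.9% of promoters). The ESRRB motif AAGGTCA (4.08% of promoters), the STAT motif TTCCNGGAA (0.913%), TATAAA (12.4%), CCAAT (33.8%) and GGGCGG (32.7%) had 0 matches in this window. A match is a description of the letters and not of binding.

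The baseline of the *Nanog* promoter was a median CC activity of 0.372 in replicate 1, 0.293 in replicate 2 and 0.337 in replicate 3. EC combinations had a median activity of 0.690, 0.592 and 0.638 in the same order, and EE combinations of 1.04, 1.02 and 1.00. The types of combination ranked CC, EC, EE in each replicate. The median boost index of EC combinations exceeded that of CC combinations by 0.94 ± 0.06 (SD, n = 3) log2 units, and that of EE combinations exceeded EC by 0.67 ± 0.10 (SD, n = 3). Both differences were positive in 3 of 3 replicates (two-sided exact sign-flip permutation test, p = 0.25 for each, the smallest that 3 replicates allow). Single combinations overlapped widely between the types. From the 5th to the 95th percentile, boost indices averaged over replicates ran from -1.23 to 0.91 for CC, from -0.36 to 2.34 for EC and from 0.39 to 2.59 for EE combinations. Activity fell short of the baseline in 52.9% of CC combinations, against 11.7% for EC and 1.60% for EE. All 291 CC combinations carried both fragments in the same orientation, whereas 2521 of 4984 EC combinations did.

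Control fragments were not uniform, which bears on every value measured against them. The controls are 20 designed sequences without known enhancer function, 5 of them random and 15 shuffled. Each control was treated like an enhancer, as the median over its 5 to 65 CC combinations. Of the 20 controls, 4 were higher and 6 lower than the CC median (limma, Benjamini-Hochberg adjusted p under 0.05). Over all 8 libraries, 19.4% of control-promoter pairs were higher and 23.2% lower in the same test, near the shares with *Nanog*. The highest control, E46-shuffled2, had a boost index of 0.09, 0.80 and 0.55 in the 3 replicates (adjusted p = 0.0439, limma) and rests on 8 CC combinations. The second, E30-shuffled3, had 0.12, 0.21 and 0.45 (adjusted p = 0.0471). The lowest, E95-shuffled3, had -0.72, -0.49 and -0.55 (adjusted p = 0.00185, 5 CC combinations), and E6-shuffled1 had -0.997, -0.55 and -0.20 (adjusted p = 0.0325). The values of high and low controls did not overlap across replicates, although E46-shuffled2 and E6-shuffled1 had SDs of 0.36 and 0.40 between replicates.

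The same controls also moved EC combinations. For each EC combination, the median of the same enhancer in the same position was subtracted, and the remainder was taken per control partner. With RandomE5 as partner, enhancers were higher by 0.37, 0.35 and 0.41 log2 units in the 3 replicates (347 EC combinations). With E6-shuffled3 as partner, they were lower, at -0.42, -0.33 and -0.24 (327 EC combinations). These extremes were chosen after their values were seen, and the first 200 bases of each designed part are shown so that the sequences behind them can be compared, with the same motifs in capitals.
RandomE5: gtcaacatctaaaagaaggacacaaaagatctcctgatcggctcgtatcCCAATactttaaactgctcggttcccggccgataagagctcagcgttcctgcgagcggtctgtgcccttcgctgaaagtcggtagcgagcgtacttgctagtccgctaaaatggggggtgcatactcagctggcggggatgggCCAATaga
E6-shuffled3: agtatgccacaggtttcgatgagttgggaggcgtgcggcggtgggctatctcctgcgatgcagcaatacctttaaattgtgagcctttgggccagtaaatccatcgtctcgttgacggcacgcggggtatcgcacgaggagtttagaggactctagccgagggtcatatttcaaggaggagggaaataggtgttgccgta
Over its whole designed part, RandomE5 holds 3 CCAAT matches and no match to the other motifs, and E6-shuffled3 holds 1 KLF and 1 CCAAT match. RandomE3, with a shift of -0.27, also holds 3 CCAAT matches, so this motif alone does not separate them. Across the 20 controls, the shift of EC combinations and the boost index of the CC combinations had a Pearson's R of 0.853, as a description over fragments measured in the same library. The shift with the *Nanog* promoter and that with the *Otx2*, *Klf2* and *Sox2* promoters had a Pearson's R of 0.958, 0.926 and 0.843 over the same 20 fragments. GC content of the controls and the shift had a Pearson's R of 0.049.

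**Figure D1:**
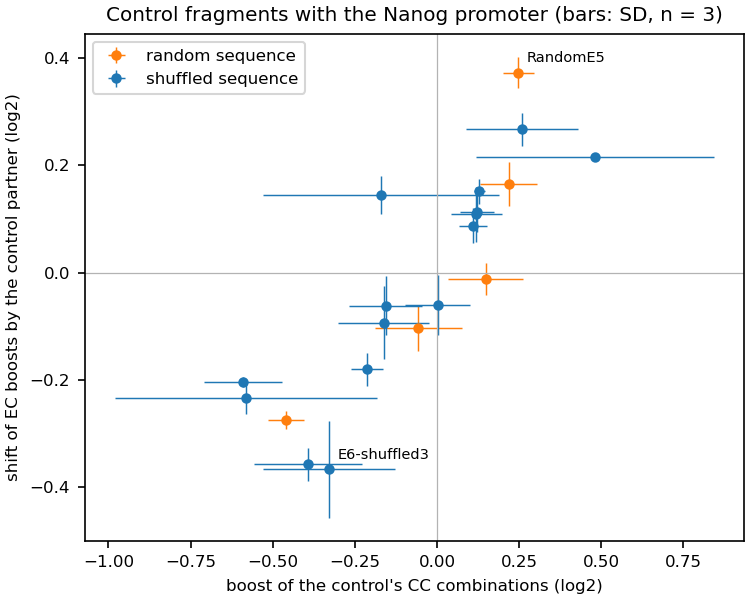
Boost index of the CC combinations of each control fragment (x axis, log2) against the shift of EC boost indices with that control as partner (y axis, log2), for the 20 controls with the *Nanog* promoter, coloured by random or shuffled sequence. Points are means (x) or medians over replicate averages (y) and bars are the SD over 3 replicates. The shift ranges from -0.37 to 0.37, and controls with high CC combinations mostly also raise their EC partners.

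Single enhancers mostly raised the *Nanog* promoter. Of 57 enhancers with EC combinations, 52 were higher than the CC combinations, 1 was lower and 4 were not called (limma on the 3 replicate medians of all 8 libraries, Benjamini-Hochberg adjusted p under 0.05). Over the 451 enhancer-promoter pairs of all libraries, 87.6% were higher and 3.55% lower, near the share with *Nanog*. The mean boost index had a median of 0.81 over enhancers, 24 enhancers exceeded 1 and 4 exceeded 2. Each value is a median over 9 to 158 EC combinations. With a baseline from random controls alone, 43 enhancers were higher, and with one from shuffled controls 54.

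The strongest fragments came from different loci. Pou5f1_E081, on chromosome 17 from 35503887 to 35504336 within the RefSeq gene Gm32362 of the *Pou5f1* locus, had boost indices of 2.22, 2.72 and 2.36 in the 3 replicates (adjusted p = 0.000151, limma). Nanog_E073 followed with 2.12, 2.54 and 2.17 (adjusted p = 0.000149), and Klf2_E058, from the locus of the zinc finger factor KLF2, with 1.98, 2.42 and 2.09 (adjusted p = 0.000153). Otx2_E111, from the locus of a homeodomain factor that acts on exit from naive pluripotency, had 1.98, 2.33 and 2.05 (adjusted p = 0.000128). Lefty1_E085, from the locus of the Nodal antagonist LEFTY1, had 1.89, 2.20 and 1.91 (adjusted p = 0.000128). Neighbours in this order overlapped across replicates, although the order of these 5 was the same within each replicate, and differences between neighbours were not tested. In replicate 2, whose baseline was the lowest, 44 of 57 enhancers had their highest boost index. Boost indices in a single EC combination still varied, from 1.76 to 2.85 between the 10th and the 90th percentile for Pou5f1_E081.

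The weakest fragments lay at the baseline. Otx2_E110 had boost indices of -0.24, -0.40 and -0.17 and was the only enhancer lower than the controls (adjusted p = 0.0183, limma). This call was lost without replicate 1, without replicate 2 and with a baseline from shuffled controls. Lefty1_E087 had 0.08, 0.20 and -0.22 (adjusted p = 0.861) and Pou5f1_E084, which lies within the *Pou5f1* gene, -0.08, 0.15 and 0.11 (adjusted p = 0.440). Both values straddled the baseline between replicates. Pou5f1_E079 had 0.09, 0.14 and 0.06 (adjusted p = 0.139) and Nodal_E157 0.13, 0.05 and 0.15 (adjusted p = 0.109). All of these fell within the range of the control fragments, from -0.59 to 0.48, as did Nanog_E065 and 8 further enhancers called higher.

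**Figure D2:**
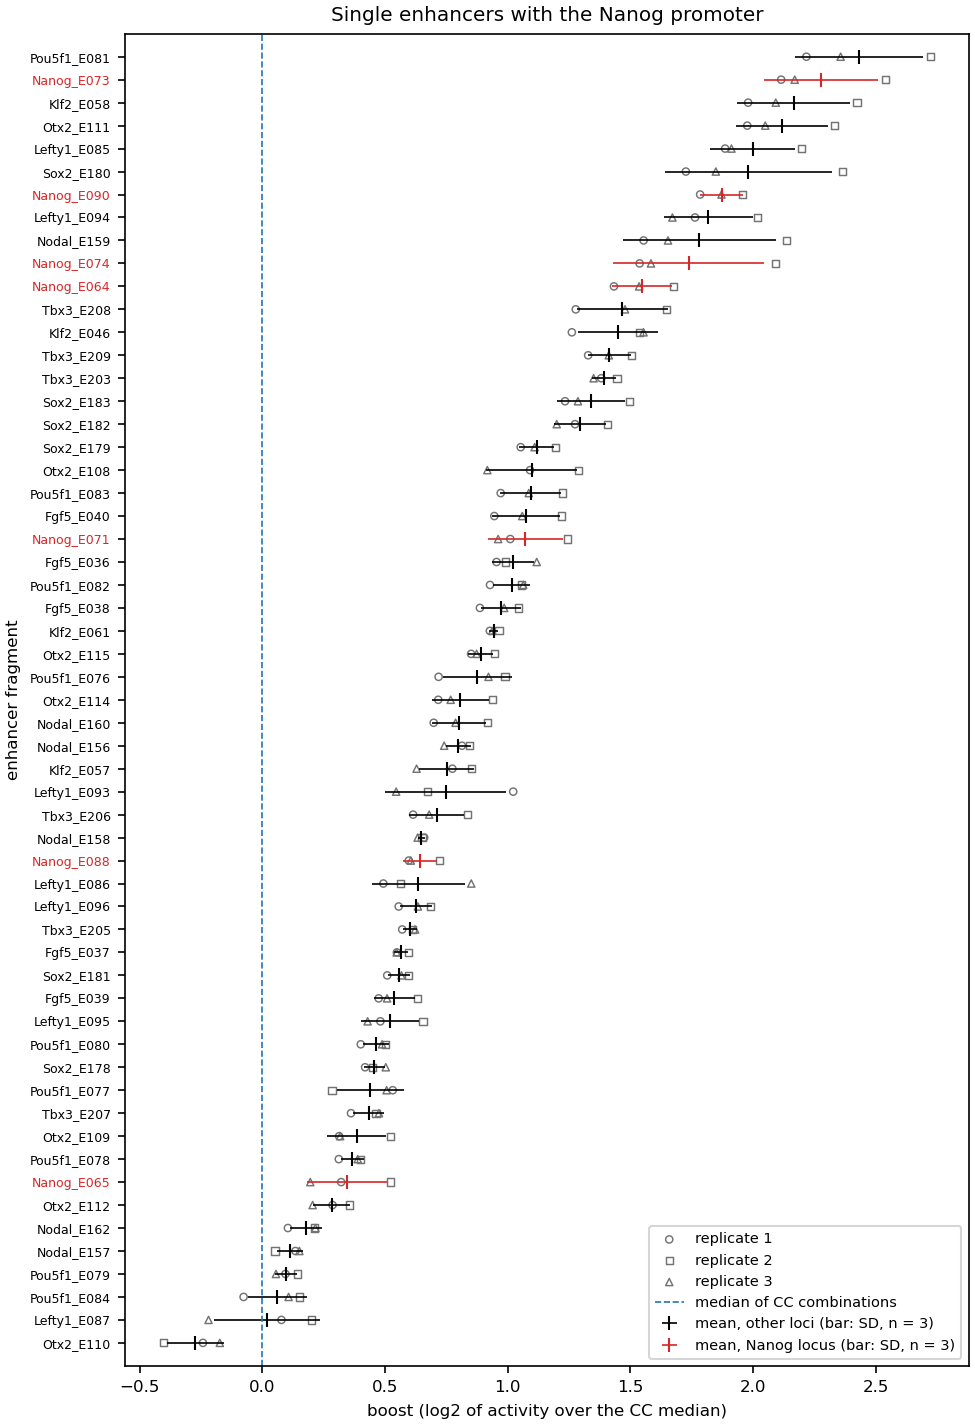
Boost index (x axis, log2 of activity over the CC median) of the 57 single enhancers (y axis, ordered by mean) with the *Nanog* promoter. Open symbols are the 3 replicates, ticks and bars the mean and SD, red the enhancers of the *Nanog* locus and the dashed line the CC median. Means run from -0.27 for Otx2_E110 to 2.43 for Pou5f1_E081, and the *Nanog* locus fragments lie from 0.35 to 2.28.

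By locus of origin, the 7 measured enhancers of the *Nanog* locus had the highest median boost index, 1.55, followed by 1.21 for 6 enhancers of the *Sox2* locus and 1.20 for 4 of *Klf2*. The medians were 1.05 for *Tbx3*, 0.97 for *Fgf5*, 0.81 for *Otx2*, 0.72 for *Nodal*, 0.64 for *Lefty1* and 0.46 for *Pou5f1*. The high place of the *Nanog* locus was shared by other promoters: its median was 1.37 with *Otx2*, 1.34 with *Klf2* and 3.60 with *Sox2*, the highest of the 9 loci in each. Loci overlapped in their members, and *Pou5f1* held both the strongest enhancer and the lowest median.

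Within the *Nanog* locus, position along the chromosome and boost index are given from upstream to downstream of the gene. Nanog_E064, centred 44.5 kb before the start site, had boost indices of 1.43, 1.68 and 1.54. Nanog_E065, 43.5 kb before it, had 0.32, 0.52 and 0.20, and Nanog_E071, 12.3 kb before it, had 1.01, 1.25 and 0.96. Adjacent fragments thus differed, as the replicates of Nanog_E064 and Nanog_E065 did not overlap. The windows of Nanog_E073 and Nanog_E074, centred 4.82 and 4.43 kb before the start site, overlap by 66 bp. The overlap of the shorter cloned fragments is unknown. Nanog_E074 had boost indices of 1.54, 2.09 and 1.58, lower than Nanog_E073 in each replicate. Nanog_E088 and Nanog_E090 lie 57.8 and 63.0 kb after the start site, within the gene of the glucose transporter SLC2A3, and the others lie outside annotated genes. Nanog_E088 had 0.60, 0.72 and 0.61, and Nanog_E090 had 1.78, 1.96 and 1.87. Both ends of the locus therefore held a strong and a weak fragment. All 7 were higher than the controls, with adjusted p-values (limma) from 7.05e-05 for Nanog_E090 to 0.0158 for Nanog_E065. The call of Nanog_E065 was lost without replicate 1, without replicate 2 and with a baseline from random controls. Nanog_E089 was measured beside other enhancers alone, in 15 EE combinations, so it has no boost index of its own.

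The boost index was compared between position 2 and position 1 for 54 enhancers with at least 5 EC combinations in each. It was lower in position 2 for 22 enhancers and higher for 9 (limma, adjusted p under 0.05), against 25.2% lower and 21.5% higher over all 8 libraries. The median difference was -0.05 log2 units and the median absolute difference 0.21. Pou5f1_E084 differed most, at 0.43 in position 1 and -0.26 in position 2, with differences of -0.66, -0.68 and -0.73 in the 3 replicates (adjusted p = 0.00463). Its mean boost index near 0 thus combined values on both sides of the baseline. Otx2_E112 (0.67 and 0.12, adjusted p = 0.00838), Klf2_E057 (1.10 and 0.57, adjusted p = 0.0133) and Pou5f1_E079 (0.43 and -0.10, adjusted p = 0.00718) were also lower in position 2. In the other direction, Sox2_E181 rose from 0.38 in position 1 to 0.85 in position 2 (adjusted p = 0.00556), Nodal_E158 from 0.35 to 0.77 (adjusted p = 0.00718), Nodal_E162 from -0.06 to 0.31 (adjusted p = 0.00720) and Tbx3_E206 from 0.48 to 0.84 (adjusted p = 0.00709). Without replicate 1 the number of called enhancers was 14, with the calls of Otx2_E112 and Klf2_E057 lost, and without replicate 3 it was 15. Orientations were pooled within each position, and their shares were not balanced between positions. An effect of orientation can therefore enter a difference between positions, and the reverse. Otx2_E112, for example, had 46 EC combinations in position 1 and 80 in position 2, and 80 in plus and 46 in minus orientation. The 2 effects were not separated.

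Orientation was compared over both positions for 55 enhancers with at least 5 EC combinations in each orientation. The boost index was higher in plus orientation for 16 enhancers and lower for 15 (limma, adjusted p under 0.05), against 27.2% and 24.1% over all 8 libraries. Plus and minus are those of the fragment as cloned. The median absolute difference was 0.28 log2 units. Fgf5_E036, which lies within the *Fgf5* gene, had a boost index of 0.39 in plus and 1.26 in minus orientation, with differences of -0.77, -0.71 and -1.15 in the 3 replicates (adjusted p = 0.00386). Pou5f1_E079 had -0.14 and 0.57 (adjusted p = 0.00323), Sox2_E181 0.17 and 0.85 (adjusted p = 0.00364) and Nodal_E156 0.48 and 1.06 (adjusted p = 0.00386). These 4 were low in plus orientation in all replicates. Conversely, Lefty1_E087 was at 0.26 in plus and -0.43 in minus orientation (adjusted p = 0.0490), Otx2_E112 at 0.56 and -0.11 (adjusted p = 0.00323), Fgf5_E037 at 0.78 and 0.21 (adjusted p = 0.00364) and Klf2_E057 at 0.95 and 0.42 (adjusted p = 0.00916). The call of Lefty1_E087 was lost without replicate 1 and without replicate 2, and that of Klf2_E057 without replicate 1. Of the *Nanog* locus, Nanog_E064 was higher in plus orientation, 1.71 against 1.34 (adjusted p = 0.00386), and the other 6 fragments were not called. Over all EC combinations orientation left the median almost unchanged in value, from 0.91 with both fragments in minus to 0.96 with plus in position 1 and minus in position 2, and over EE combinations it ranged from 1.61 to 1.62.

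**Figure D3:**
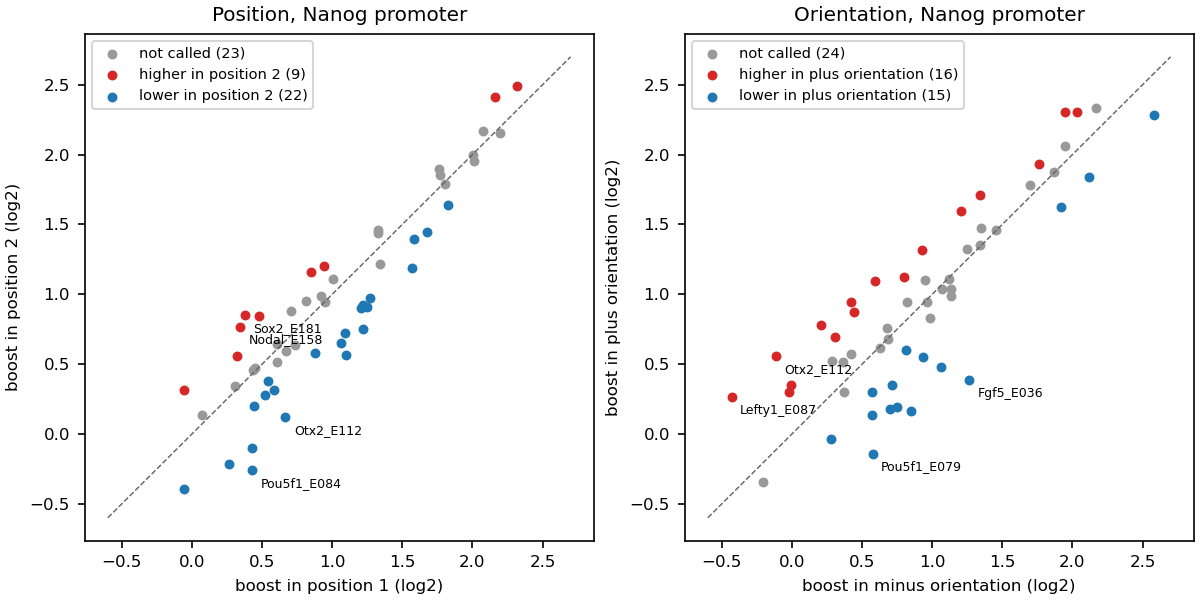
Boost index (log2) of each enhancer in position 1 (x) against position 2 (y), left, and in minus (x) against plus orientation (y), right, as means of 3 replicates with the *Nanog* promoter. Each point is 1 enhancer, red and blue points were called and the dashed line marks equality. In position 2, 22 enhancers are lower and 9 higher, and in plus orientation 16 are higher and 15 lower.

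Pairs of enhancers were examined as 1315 unordered pairs with at least 3 EE combinations, averaged over positions and orientations. The mean boost index of a pair had a median of 1.58 and exceeded that of both single enhancers in 997 pairs. The highest pair, Pou5f1_E081 with Tbx3_E203, had 2.76, 3.29 and 2.95 in the 3 replicates over 8 EE combinations. Otx2_E114 with Pou5f1_E081 had 2.77, 3.26 and 2.95 (7 EE combinations), Otx2_E115 with Pou5f1_E081 had 2.67, 3.18 and 2.84, and Pou5f1_E081 with Pou5f1_E083 had 2.63, 3.16 and 2.79. Pou5f1_E081 thus took part in 4 of the 5 highest pairs, and the remaining one was Otx2_E111 with Tbx3_E203, at 2.67, 3.09 and 2.83. Replicates overlapped among all 5. Their partners were not the strongest single enhancers, since Otx2_E114 and Otx2_E115, which lie within the *Otx2* gene, had boost indices of 0.81 and 0.89 alone.

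To obtain the additive expectation of an EE combination, the activities of its 2 enhancers alone, each in its position, were summed and the baseline was subtracted. The median log2 ratio of observed over expected activity was -0.07, -0.01 and -0.01 in the 3 replicates over 8959 EE combinations. Under a multiplicative expectation, the product of both activities over the baseline, it was -0.35, -0.37 and -0.31. Of the EE combinations, 79.8% lay within 1 propagated SD of the additive expectation, 7.01% above and 13.2% below. Observed activity was near the additive expectation for most pairs and below it for those expected to be highest. In the 329 pairs with the highest expectation, from 2.16 to 3.20 as a boost index, the median log2 ratio was -0.25, -0.15 and -0.16, and in the 329 with the lowest expectation -0.02, 0.01 and 0.06.

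For single pairs, 192 lay above and 346 below the additive expectation (limma over the pairs of all 8 libraries, adjusted p under 0.05). Over all libraries, 31% of pairs lay above and 15.6% below, whereas with *Nanog* 14.6% lay above and 26.3% below. All libraries together include weaker promoters, with which the study found larger shares above additivity by its own measure. Shares with *Otx2* and *Klf2* alone are not given, and whether the difference is particular to *Nanog* was not tested. The calls measure the spread between replicates, which share barcodes, so that deviations of single combinations count as reproducible. In 65 of the 192 and 166 of the 346, all EE combinations of the pair, which carry separate barcodes, lay on the same side. The number of pairs above fell by more than 1.5 times without any of the replicates, to 43 without replicate 1, 25 without replicate 2 and 106 without replicate 3. The number below was 154 without replicate 1 and 174 without replicate 2.

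The pairs furthest above the expectation differed in strength, with mean boost indices from 1.31 to 2.27. Klf2_E046 with Otx2_E114 had a boost index of 2.06, 2.47 and 2.28 against an expectation of 1.73, a log2 ratio of 0.55 (SE 0.05, adjusted p = 0.00334, limma, 3 of 3 EE combinations above). Klf2_E046 with Otx2_E115 had 2.06, 2.38 and 2.25, a ratio of 0.47 (SE 0.05, adjusted p = 0.00450, 8 of 8 EE combinations). Lefty1_E086 with Otx2_E112 exceeded the expectation by 0.50 (adjusted p = 0.0248), Lefty1_E095 with Nodal_E156 by 0.46 (adjusted p = 0.0273) and Klf2_E057 with Lefty1_E095 by 0.44 (adjusted p = 0.0283). All 3 of these calls were lost without replicate 2, and those of Lefty1_E086 with Otx2_E112 and Klf2_E057 with Lefty1_E095 also without replicate 1. Klf2_E046 and Lefty1_E086 have only 10 and 9 EC combinations, and the expectation uses those of each position alone. These were 3 in position 1 and 7 in position 2 for Klf2_E046, and 5 and 4 for Lefty1_E086. An error in such a value would shift all pairs of the fragment that use it. Over its partners, Otx2_E114 had 33 of 56 pairs above and 1 below, Otx2_E115 30 of 56 above and 2 below, and Tbx3_E203 29 of 56 above and 2 below. Lefty1_E095 had 26 of 53 pairs above and 0 below (1 at an unadjusted p under 0.05). Over all pairs with *Nanog*, 14.6% lay above and 26.3% below. These fragments were named after their counts were seen. The pairs of a fragment share its single-enhancer value, so these counts are not independent.

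The 5 pairs furthest below the expectation were all formed among the same 4 fragments, Klf2_E058, Nanog_E074, Nodal_E159 and Sox2_E180. Sox2_E180 and Nodal_E159 come from the loci of the SRY-box factor SOX2 and of the signalling ligand NODAL. Since the table gives no fragment sequence, the primers that bound these 4 fragments are shown to identify them, 5′ to 3′. Klf2_E058 spans chr8:72316077-72316526, Nanog_E074 chr6:122702830-122703279, Nodal_E159 chr10:61415836-61416285 and Sox2_E180 chr3:34757763-34758212 (mm10), all outside annotated genes.
Klf2_E058 forward: cagggccataggttcagacaaag
Klf2_E058 reverse: aaggatgtttcaaactaagcctgacag
Nanog_E074 forward: ccctgtaccaaacctttgtagaacttg
Nanog_E074 reverse: ggatacaaagcccagcaaactacc
Nodal_E159 forward: tccttgttccctacactataagcatcc
Nodal_E159 reverse: ttgaaccagcggtctcctgc
Sox2_E180 forward: tttaagtttgccttgtgagctcagg
Sox2_E180 reverse: cggtattaaagtctccttcacaagacc
Alone, each of the 4 was among the 10 strongest enhancers, with mean boost indices of 2.17, 1.74, 1.78 and 1.98 in the order given. Nanog_E074 with Nodal_E159 had 0.85, 1.73 and 1.05 over 8 EE combinations, against single values of 1.54, 2.09 and 1.58 for Nanog_E074 and 1.55, 2.14 and 1.65 for Nodal_E159. The pair lay below both of its members in each replicate. Its log2 ratio to the expectation was -1.32 (SE 0.06, adjusted p = 0.00301, limma, 0 of 8 EE combinations above), which made it the furthest below of all 1315 pairs. Nanog_E074 with Sox2_E180 had 1.10, 1.95 and 1.06 (ratio -1.28, SE 0.07), and Klf2_E058 with Nodal_E159 had 1.19, 1.85 and 1.54 (ratio -1.28, SE 0.06). Klf2_E058 with Nanog_E074 had 1.18, 1.94 and 1.47 (ratio -1.24, SE 0.06), and Nodal_E159 with Sox2_E180 had 0.87, 1.98 and 1.48 (ratio -1.23, SE 0.11). Replicate 2 was the highest in each of these pairs, as for most single enhancers. The remaining pair among the 4 fragments, Klf2_E058 with Sox2_E180, had 1.48, 2.29 and 1.58 (ratio -1.11, SE 0.06), and some pairs with other fragments lay further below, such as Nodal_E159 with Pou5f1_E081 at -1.19.

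These 6 pairs lay below the weaker of both single enhancers in all 3 replicates, by 0.20 to 0.53 log2 units on average. Of all 1315 pairs, 8 (0.608%) did so, and the other 2 were Lefty1_E087 with Pou5f1_E084 and Pou5f1_E077 with Pou5f1_E084. Their differences from the weaker single enhancer were -0.49 and -0.15, at boost indices of -0.54 and -0.09. The 4 fragments were singled out by these values, so the values with *Nanog* are a description. The same 6 pairs were measured with the other promoters in separate libraries. With *Otx2*, *Klf2* and *Sox2*, all 6 lay below the additive expectation, with ratios from -1.25 to -0.97, from -1.21 to -0.86 and from -1.42 to -0.93 (limma, adjusted p under 0.05 for each). The same held with *Lefty1* (-1.21 to -0.85), *Tbx3* (-1.26 to -0.95), *Fgf5* (-1.06 to -0.51) and *Ap1m1* (-0.75 to -0.50). Over the pairs of all 8 libraries, 15.6% were called below, and the share for pairs of like expectation is not given for these promoters. The number below the weaker single enhancer in all replicates was 4 of 6 with *Otx2*, 4 with *Klf2*, 3 with *Sox2*, 2 with *Tbx3*, 5 with *Ap1m1*, and 0 with *Lefty1* and *Fgf5*. Whether these numbers differ between promoters was not tested.

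With the 20 other enhancers of a boost index over 1, the 4 fragments also fell short of additivity. The median log2 ratio was -0.48 for Klf2_E058 (17 of 20 pairs below), -0.54 for Nanog_E074 (11 of 14), -0.59 for Nodal_E159 (17 of 20) and -0.49 for Sox2_E180 (16 of 19). None of these 73 pairs was called above, and 3 lay above at an unadjusted p under 0.05 (limma). Among the 169 pairs of those 20 enhancers with each other, it was -0.09, with 64 below and 23 above. Pairing with the 4 fragments thus lay lower than pairing among the other strong enhancers, as a description of fragments chosen by their values. These sets were not matched by expected activity, and the ratio was lower in pairs of high expectation. In the 329 pairs of highest expectation with *Nanog*, the median ratio was -0.19 on average over replicates, and 174 lay below. How much of the difference goes with expected activity was not tested.

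**Figure D4:**
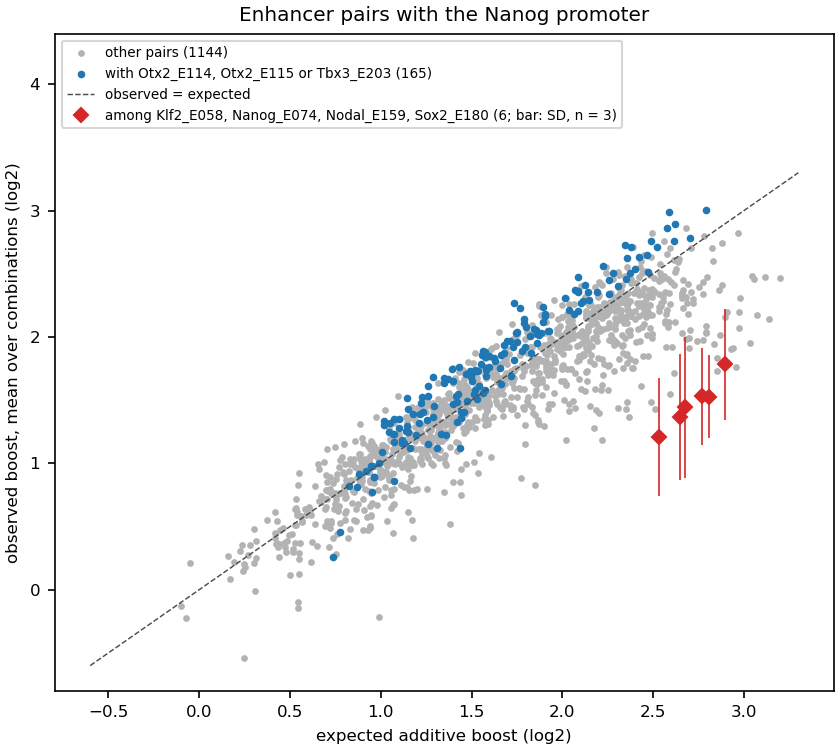
Observed boost index (y axis, log2, mean over EE combinations and replicates) against the boost index expected from additivity (x axis, log2) for the 1315 pairs with the *Nanog* promoter. Red diamonds are the 6 pairs among Klf2_E058, Nanog_E074, Nodal_E159 and Sox2_E180 with their SD over 3 replicates, blue points the pairs with Otx2_E114, Otx2_E115 or Tbx3_E203, and the dashed line equality. The red pairs lie 1.11 to 1.32 log2 units below their expectation, among the lowest for pairs of like expectation, and most blue points lie on or above the line.

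Among the fragments of the *Nanog* locus, 13 pairs were measured, of which 7 lay below the additive expectation and 0 above (limma, adjusted p under 0.05), against 26.3% below and 14.6% above over all pairs with *Nanog*. Among the 329 pairs of highest expectation, 174 lay below, a share near that of the *Nanog* locus. At an unadjusted p under 0.05, 0 lay above, and 12 of the 13 ratios were negative. Nanog_E064 with Nanog_E073 was the highest of them, at 2.14, 2.65 and 2.23, a ratio of -0.43 (adjusted p = 0.00496), and Nanog_E065 with Nanog_E088 the lowest, at 0.77, 1.36 and 0.95, a ratio of 0.09 (adjusted p = 0.436). Nanog_E073 and Nanog_E074, whose windows overlap, had 1.52, 2.25 and 1.73 together, below Nanog_E073 alone in each replicate. Their ratio was -1.01 (SE 0.06, adjusted p = 0.00301). No pair of the locus thus exceeded the strongest pairs with Pou5f1_E081. Over all pairs, those within a locus had a median ratio of -0.06 (126 pairs) and those between loci of -0.03 (1183 pairs). The 6 pairs of fragments with overlapping windows had a median of -0.26, and only 3 EE combinations carried the same fragment in both positions.

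The response of the *Nanog* promoter was set against that of the *Otx2*, *Klf2* and *Sox2* promoters. Of 57 enhancers, 5 had a higher boost index with *Nanog* than with *Otx2* (8.77% called) and 10 a higher one than with *Klf2* (17.5% called), and 0 were lower in either comparison (limma over 4 libraries, adjusted p under 0.05). At an unadjusted p under 0.05, 1 enhancer was lower than with *Otx2* and 0 than with *Klf2*. By value, 46 of 57 enhancers were higher with *Nanog* than with *Otx2* (median difference 0.12) and 49 of 57 than with *Klf2* (median difference 0.15). All boost indices of a library share its CC median, so an error in a baseline would shift all of its enhancers together. With *Nanog*, Klf2_E058 had a mean boost index of 1.99 with a baseline from random controls and 2.24 with one from shuffled controls. Other baselines were not used for the comparison of promoters. With *Sox2*, 46 of 55 enhancers were higher than with *Nanog* (83.6% called) and 0 were lower. One of the 55 passed an unadjusted p in that direction. Boost indices of the *Nanog* and *Otx2* promoters correlated with a Pearson's R of 0.983 across enhancers, those of *Nanog* and *Klf2* with 0.979 and those of *Nanog* and *Sox2* with 0.898, as descriptions over enhancers that share their libraries.

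Nanog_E073, from the promoter's own locus, differed most from *Otx2*. Its boost index was 2.28 with *Nanog* and 1.85 with *Otx2*, higher by 0.46, 0.78 and 0.04 in same-numbered replicates (adjusted p = 0.0328, limma). With replicate number as a block in the fit, it was not called (adjusted p = 0.0507, limma). Klf2_E046 was higher by 0.40 (adjusted p = 0.00985), Fgf5_E036 by 0.40 (adjusted p = 0.0151) and Sox2_E179 by 0.31 (adjusted p = 0.0210). All 4 of these calls were lost without replicate 2. The values of Klf2_E046 rest on 10 EC combinations with *Nanog* and 5 with *Otx2*. Against *Klf2*, the largest differences belonged to Tbx3_E208, at 1.47 and 1.01 (adjusted p = 0.00957), and Tbx3_E209, at 1.41 and 0.99 (adjusted p = 0.00519), both within the gene of the T-box factor TBX3. Sox2_E182 was higher by 0.37 (adjusted p = 0.00662) and Nanog_E071 by 0.32 (adjusted p = 0.0238), and both of these calls were lost without replicate 1. Enhancers of the promoter's own locus were not set apart as a group, since 1 of 7 was called against *Otx2* and 1 of 7 against *Klf2*. With all 8 libraries in the fit, 0 enhancers were called against *Otx2* and 2 against *Klf2*.

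The *Sox2* promoter responded over a wider range. Klf2_E058 had a boost index of 2.17 with *Nanog* and 4.55 with *Sox2* (difference -2.39, SE 0.13), Nanog_E074 1.74 and 4.06 (difference -2.32, SE 0.15), Nodal_E159 1.78 and 4.08 (difference -2.30, SE 0.15) and Sox2_E180 1.98 and 4.20 (difference -2.22, SE 0.16), each at an adjusted p under 0.05 (limma). These 4 largest differences belonged to the same 4 fragments whose pairs fell furthest below additivity with *Nanog*. When boost indices were divided by the slope of each library against the others, none of these 4 was called, with differences of 0.063, -0.25, -0.20 and 0.019 in the same order (adjusted p from 0.234 to 0.973, limma). On that scale, 15 enhancers were higher and 5 lower with *Nanog* than with *Sox2*, and Tbx3_E203 (0.91), Pou5f1_E083 (0.71) and Otx2_E115 (0.70) were among the higher ones, named after their values were seen. The largest value, 1.12 for Pou5f1_E082, rests on 3 EC combinations with *Sox2*. Only the slope was divided out, so an offset between libraries would remain in these differences. Enhancers that did not differ between *Nanog* and *Sox2* before this division included Otx2_E114 (0.81 and 0.80), Otx2_E115 (0.89 and 0.92) and Lefty1_E095 (0.52 and 0.59).

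Slopes of EE boost indices, *Nanog* over another promoter, were computed across shared EE combinations of same-numbered replicates. The slope was 0.94 ± 0.07 (SD, n = 3) over *Klf2* and 0.93 ± 0.12 over *Otx2*, across 8364 and 8251 combinations. It was 0.45 ± 0.08 over *Sox2*, 0.46 ± 0.07 over *Tbx3*, 0.42 ± 0.05 over *Lefty1* and 0.33 ± 0.07 over *Fgf5*, and 0.81 ± 0.13 over the housekeeping promoter *Ap1m1*. The slopes over *Klf2* and *Otx2* lay within their spread of 1 and those over *Sox2*, *Tbx3*, *Lefty1* and *Fgf5* well under it. A slope does not give the level, since 31 of 51 single enhancers had a higher boost index with *Nanog* than with *Fgf5* (median difference 0.47). The study had far fewer CC combinations for the *Fgf5* baseline than for the others and thought an inaccuracy likely. An error in that baseline would shift all boost indices with *Fgf5*, and its part in this difference was not tested. Ordinary least squares lowers a slope where the x values carry error, and the standardised major axis gave 1.08, 1.05 and 0.58 over *Klf2*, *Otx2* and *Sox2*, and 1.43 over *Ap1m1*.

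**Figure D5:**
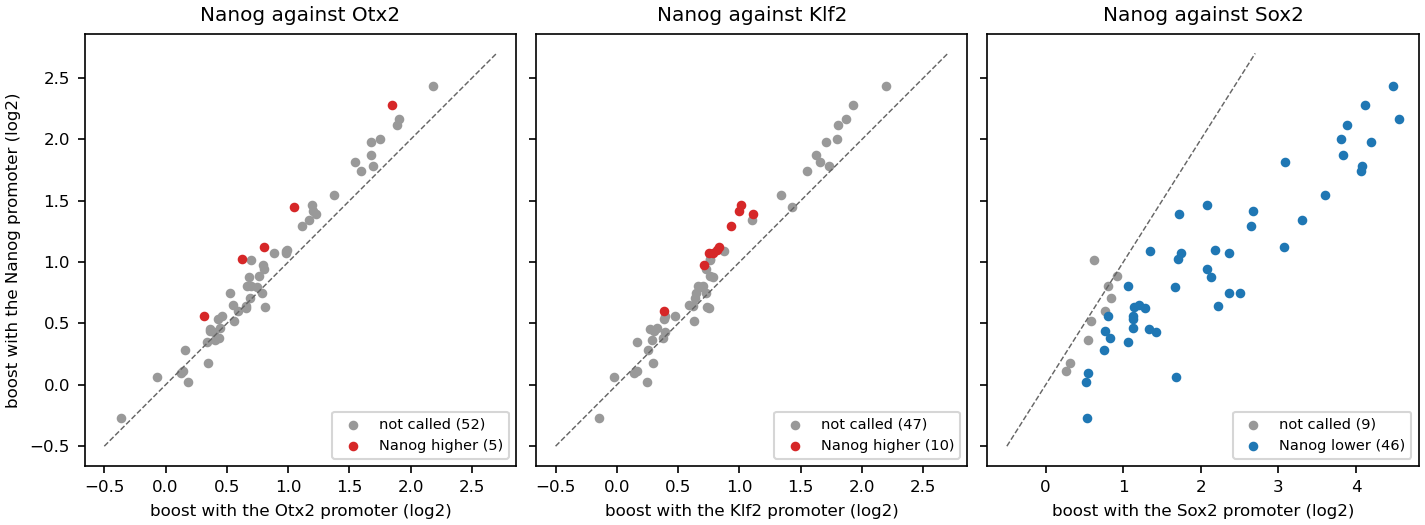
Boost index (log2, mean of 3 replicates) of each single enhancer with the *Nanog* promoter (y axis) against the *Otx2*, *Klf2* and *Sox2* promoters (x axis of each panel). Red and blue points were called higher or lower with *Nanog*, grey points were not called and dashed lines mark equality. Points lie mostly on or slightly above the line for *Otx2* and *Klf2*, with 5 and 10 called, and fall below it for *Sox2*, with 46 called.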

How the data were processed

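Per the labels and the study's methods, a barcoded plasmid pool of the *Nanog* promoter was transfected into E14tg2a cells in 3 biological replicates, each sequenced in 2 runs that entered a single value. The authors counted barcodes in cDNA and pDNA, kept barcodes with at least 8 pDNA counts and combinations with at least 5 barcodes, and deposited the mean cDNA to pDNA ratio per combination and replicate. The submitters' processing notes name Bowtie2 and mm10. Columns with the authors' own baselines, boost indices and expected activities were present in the table and were not used. The deposited annotation and primer tables gave fragment coordinates and sequences, and RefSeq gave genes and promoters. Counts per barcode were not used here, so depth is unknown and 3 replicates limit the precision.

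Boost indices were computed per replicate from the deposited ratios, as medians over EC combinations for a single enhancer, on a log2 scale without pseudocount. Tests were made with limma 3.58.1 in R 4.3.3 over the features of all 8 libraries, or of 4 for the comparison of promoters, with Benjamini-Hochberg adjustment at 5% FDR. Scripts ran in Python 3.11.15 with numpy 2.4.6, pandas 2.3.3, scipy 1.17.1 and matplotlib 3.10.9, and were tested on simulated data. Named were all *Nanog* locus fragments, the 5 highest and 5 lowest enhancers and those not called higher, the 4 largest called differences in each direction for positions, orientations and promoters, the 5 highest pairs, the 5 largest called deviations in each direction whose EE combinations all lay on 1 side, and the 2 highest and 2 lowest controls. The members and lists were chosen with earlier results of these data known. Alternatives were other baselines, summaries, filters, expectations, library sets, thresholds and leaving out each replicate.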

Additional observations from a re-analysis of the deposited data

Results flagged for a closer look

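A test of the difference between promoters called 5 single enhancers higher with *Nanog* than with *Otx2*, 10 higher than with *Klf2* and 46 lower than with *Sox2* (limma over 4 libraries, adjusted p under 0.05). Against *Klf2*, Nanog_E071 was higher by 0.32, Sox2_E182 by 0.37, Tbx3_E209 by 0.42 and Tbx3_E208 by 0.45 log2 units, in 3 of 3 same-numbered replicates each. Against *Otx2*, Sox2_E179 was higher by 0.31, Fgf5_E036 by 0.40, Klf2_E046 by 0.40 and Nanog_E073 by 0.43, also in 3 of 3 replicates each. Against *Sox2*, the differences were -2.39 for Klf2_E058, -2.32 for Nanog_E074, -2.30 for Nodal_E159 and -2.22 for Sox2_E180. Groups of 3 replicates are too small for the test of outlying samples, which was not applied.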

How the results depend on the processing

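The differences of EC from CC and of EE from EC, the number of enhancers above controls and the number that differ between orientations stayed near their values under all alternatives run. The single enhancer below controls was lost at 1% FDR (0) and with a baseline from shuffled controls (0), and leaving out a replicate gave 0 to 1. Enhancers that differ between positions numbered 14 to 24 when a replicate was left out, and 19 by a rank-sum test over combinations, which was chosen after seeing the data and is no support for the calls, since combinations share the same transfections. Pairs that deviate from additivity numbered 197 to 399 when a replicate was left out, those above 25 to 106 and those below 154 to 293. A multiplicative expectation gave 11 pairs above and 779 below and a median log2 ratio of -0.34, and the mean of log2 ratios was -0.078. Under it, the ratio turned to -0.64 for Otx2_E111 with Tbx3_E203, -0.21 for Otx2_E114 with Pou5f1_E081, -0.39 for Otx2_E115 with Pou5f1_E081, -0.62 for Pou5f1_E081 with Pou5f1_E083 and -0.79 for Pou5f1_E081 with Tbx3_E203.

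With all 8 libraries in the fit, 0 enhancers were higher than with *Otx2* and 2 than with *Klf2*. Dividing boost indices by the slope of the library gave 21 called differences in place of 61, in part for other enhancers and in the other direction, with 0 higher than with *Otx2*, 1 than with *Klf2*, and 15 higher and 5 lower than with *Sox2*, and the difference from *Sox2* turned to 0.063 for Klf2_E058 and 0.019 for Sox2_E180. Leaving out a replicate gave 0 to 6 enhancers higher than with *Otx2*, 3 to 5 than with *Klf2* and 0 to 1 than with *Sox2*. The standardised major axis gave slopes of 1.05 over *Otx2*, 1.08 over *Klf2*, 0.58 over *Sox2*, 0.50 over *Lefty1*, 0.55 over *Tbx3*, 0.44 over *Fgf5* and 1.43 over *Ap1m1*. The cause of these changes was not tested. The replicate block gave 62 called differences between promoters against 61 without it. Of the named ones it ended the call of Nanog_E073 against *Otx2* (adjusted p = 0.0507, limma) and no other. Between libraries, replicates with the same number had deviations correlated at 0.04 to 0.82, with a mean of 0.40. Those with different numbers had correlations from -0.68 to 0.44, with a mean of -0.21. Since not all same-number correlations were over 0.1, the numbers were not taken to pair the samples, and the block remains an alternative. Among values of named items under alternatives, 428 kept direction and call, 58 lost the call, 3 gained it and 7 turned direction. Depth is unknown, and barcodes shared by the replicates limit what their spread covers.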
